A study of Mus musculus with 2 samples.

Results

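The lipid droplet coat and seipin genes are 10 genes taken by symbol from the deposited count tables: the perilipins Plin1, Plin2, Plin3 and Plin4, the CIDE gene Cidec, the droplet formation genes Fitm2 and Bscl2, the lipase inhibitor genes G0s2 and Hilpda, and the glycerol channel gene Aqp7. All 10 were found, among 23238 distinct symbols. The study used 3T3-L1, mouse fibroblasts able to become adipocytes in culture, treated either with a control siRNA or with one that targets Pink1, and sequenced 1 library of each. The labels call both cultures adipocytes. The day of differentiation and of harvest is not stated. The kit (QuantSeq) reads tags at the 3′ ends of transcripts.

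An adipocyte stores triglyceride in a droplet that is wrapped in a single layer of phospholipid and coated with proteins. The droplet is made in the membrane of the endoplasmic reticulum, where seipin and FIT2 act. It grows by fusion through CIDE proteins, and it is guarded by perilipins, which control the access of lipases. In fat cells the coat passes from PLIN2 and PLIN3 on small new droplets to PLIN1 on large mature ones.

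With 1 library per group the differences below have no replicate check, and p-values are not given. Levels are CPM, counts per 1000000 of the scaled library size, and a ratio is the level with Pink1 siRNA over that with control siRNA. The control library held 13803174 counts and the Pink1 siRNA library 14214768. Pink1, the targeted gene, had 511 counts in the control library and 351 in the Pink1 siRNA library, a ratio of 0.687 (95% counting interval 0.598 to 0.788). The interval of a ratio covers counting error only. A second, widened interval also takes in how far genes of similar level differed between the libraries, and for Pink1 it was 0.445 to 1.05, which includes 1.

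Most of the droplet genes had ratios within 1.5-fold of 1, as most measured genes did. Of the 10, 8 had a ratio within 1.5-fold of 1, beside 86.9% of the 11660 measured genes (those with at least 40 counts summed over both libraries). All 10 were measured. By a rule of size (a log2 ratio of at least 1 either way with a counting interval that leaves out 1), 1 gene was higher, Fitm2, beside 1.63% of all measured genes, and 0 were lower, beside 2.39%. The counting interval lay above 1 for 4 of 10 genes, beside 26.2% of all measured genes, and below 1 for 1, beside 24.9%. In all, 5 of 10 genes differed beyond counting error, a share near the background. The widened interval included 1 for all 10, while it left out 1 for 4.1% of all measured genes. The median log2 ratio of the 10 was 0.10, beside 0.00 for all measured genes. Together the 10 genes took 0.0568% of the control counts (exact binomial 95% interval 0.0555 to 0.0581) and 0.0612% of the Pink1 siRNA counts (0.0599 to 0.0625). These intervals cover counting error only, and the totals include the ribosomal RNA row. Much of the difference lay in Cidec, which held 2072 of the 7839 counts with control siRNA and 2586 of the 8703 with Pink1 siRNA.

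**Figure D1:**
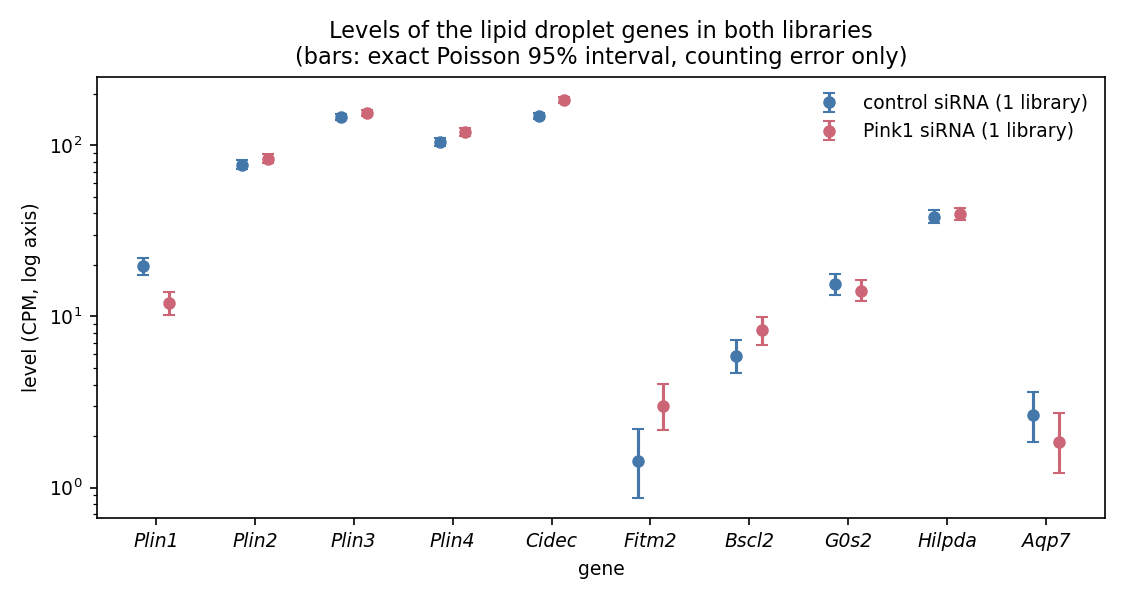
Level of each lipid droplet gene in CPM (log axis) in the control siRNA library (blue) and the Pink1 siRNA library (red), 1 library each. Bars are exact Poisson 95% intervals for counting error. The intervals of the pair do not overlap for Plin1, which is lower with Pink1 siRNA, and for Cidec and Plin4, which are higher.

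**Figure D2:**
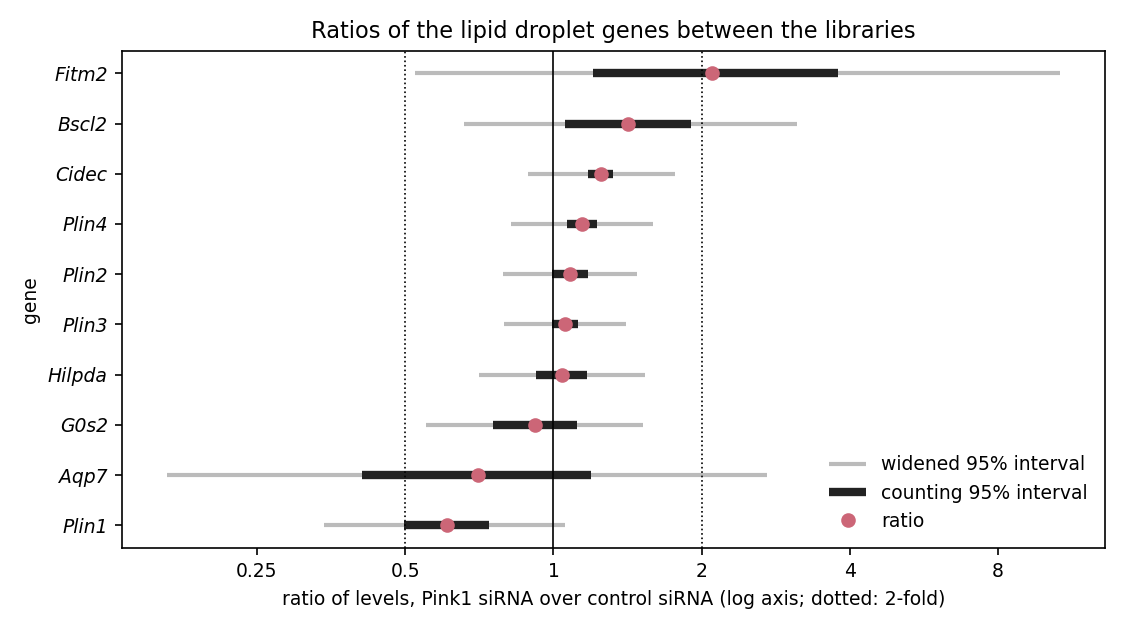
Ratio of levels, Pink1 siRNA over control siRNA (log axis), for the 10 genes in order of ratio. Black bars are counting intervals, grey bars the widened intervals, and dotted lines mark 2-fold. Ratios run from 0.607 for Plin1 to 2.10 for Fitm2, and every grey bar includes 1.

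Of the perilipins, Plin1 was lower with Pink1 siRNA and the other 3 were level or slightly higher. Plin1 encodes the perilipin of the mature fat cell, which holds back basal lipolysis and, when phosphorylated, releases the lipase activator ABHD5. It had 275 counts (19.6 CPM, exact Poisson 95% interval 17.4 to 22.1) in the control library and 167 counts (11.9 CPM, 10.2 to 13.9) in the Pink1 siRNA library. The ratio was 0.607 (counting interval 0.498 to 0.739, widened 0.343 to 1.05), a log2 ratio of -0.72. It was the lowest ratio of the 10, and it fell short of the rule of size. Of the 583 genes in the same twentieth of mean level, 19 had a log2 ratio as low or lower. In either direction, 29 of them were as far from a log2 ratio of 0 or further.

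Plin4 encodes a perilipin of small droplets in fat cells. It had 1469 counts (105 CPM) with control siRNA and 1678 counts (119.8 CPM) with Pink1 siRNA, a ratio of 1.14 (counting interval 1.06 to 1.23, widened 0.821 to 1.59). Its ratio was thus on the other side of 1 from Plin1, although both genes are typical of fat cells. Plin2, the perilipin found on droplets of most cell types, had 1082 counts (77.2 CPM) and 1170 counts (83.5 CPM), a ratio of 1.08 (counting interval 0.995 to 1.18). Plin3, a perilipin that moves from the cytosol to new droplets, had 2050 counts (146 CPM) and 2163 counts (154 CPM), a ratio of 1.06 (counting interval 0.993 to 1.12). For both of these broadly expressed coats the counting interval included 1. The remaining family gene, Plin5, the perilipin of oxidative tissues, had 0 counts in both libraries. A limit of 3 counts, the usual 1-sided bound for a count of 0, is 0.214 CPM in each, and the upper end of the 2-sided Poisson interval used for the other levels is 0.263 CPM.

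The make-up of the perilipin counts, which does not depend on how the libraries are scaled, showed the same contrast. Plin1 held 5.64% of the Plin1 to Plin4 counts in the control library (exact binomial 95% interval 5.01 to 6.32) and 3.23% in the Pink1 siRNA library (2.76 to 3.74). Its odds against the other 3 perilipins had a ratio of 0.558 (conditional 95% interval 0.455 to 0.681, counting error only). Plin4 held 30.1% (28.8 to 31.4) and 32.4% (31.1 to 33.7). Plin2 (22.2% and 22.6%) and Plin3 (42.0% and 41.8%) kept shares within 0.5 percentage points. These are shares of 3′ tags, which are not divided by transcript length because the kit reads transcript ends, and how well each gene's end was captured was not measured. Whether the Plin1 difference goes beyond the spread between cultures was not tested.

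**Figure D3:**
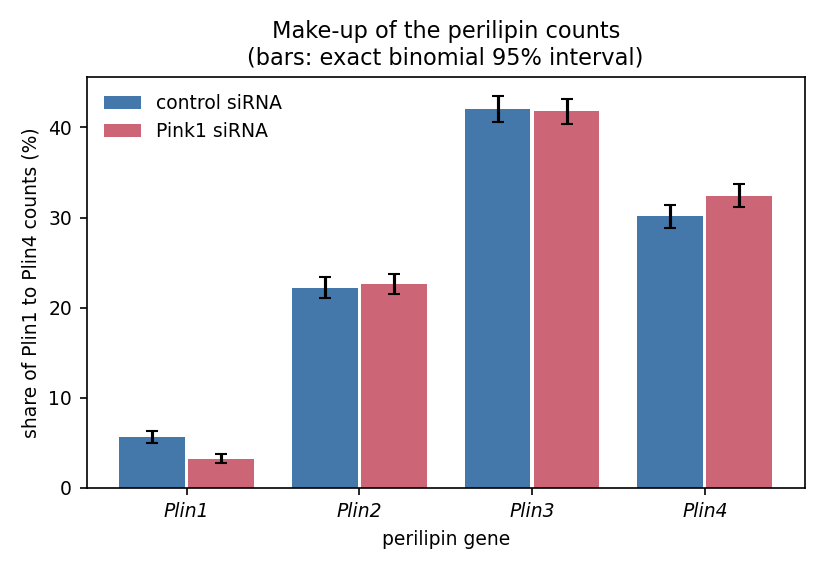
Share of the summed Plin1 to Plin4 counts (%) held by each gene in the control siRNA library (blue) and the Pink1 siRNA library (red), with exact binomial 95% intervals. Plin1 goes from 5.64% to 3.23%, with intervals that do not overlap, while those of Plin2, Plin3 and Plin4 overlap between the libraries.

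Cidec, whose protein joins droplets and passes lipid from the smaller to the larger one, was somewhat higher with Pink1 siRNA. It had 2072 counts (148 CPM, 142 to 154) in the control library and 2586 counts (185 CPM, 178 to 192) in the Pink1 siRNA library. The ratio was 1.25 (counting interval 1.18 to 1.32, widened 0.887 to 1.76). In its twentieth of level, 63 of the 583 genes had a log2 ratio as high or higher, and 80 were as far from 0 in either direction. Set against Plin1, the counts per library gave 0.133 Plin1 tags per Cidec tag with control siRNA and 0.0646 with Pink1 siRNA. The ratio of these was 0.487 (conditional 95% interval 0.396 to 0.597, counting error only). This pair was chosen after its values were seen. Cidec and Plin1 are both genes of large fat cell droplets, and their ratios lay on opposite sides of 1. The widened interval included 1 for each of them. Of the other CIDE genes, Cidea had 0 and 1 counts and Cideb had 55 and 22.

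The promoters of Plin1 and Cidec are shown because these 2 fat cell genes lay on either side of 1, and that of Hilpda because the gene is a known target of hypoxia factors. Each window runs from 250 bases before to 50 bases after a RefSeq transcript start (GRCm38.p6), 5′ to 3′ on the gene's strand. Capitals mark matches on either strand to TTGCNNAA, a pattern of C/EBP factors, or to ACGTG, the core of the hypoxia response element. Cidec and Hilpda have 2 windows each, of which the one with a match is shown and the other had none. Plin1 is at chr7:79732727-79733026 on the minus strand, Cidec (the second of its 2 windows) at chr6:113434715-113435014 on the minus strand, and Hilpda (the second of 2) at chr6:29272376-29272675 on the plus strand.
Plin1: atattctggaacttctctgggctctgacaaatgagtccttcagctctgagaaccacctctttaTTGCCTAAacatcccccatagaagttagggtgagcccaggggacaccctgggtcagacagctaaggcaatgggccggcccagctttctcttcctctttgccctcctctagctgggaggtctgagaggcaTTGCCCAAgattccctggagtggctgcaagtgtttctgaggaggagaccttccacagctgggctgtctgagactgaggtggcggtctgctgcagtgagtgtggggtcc
Cidec: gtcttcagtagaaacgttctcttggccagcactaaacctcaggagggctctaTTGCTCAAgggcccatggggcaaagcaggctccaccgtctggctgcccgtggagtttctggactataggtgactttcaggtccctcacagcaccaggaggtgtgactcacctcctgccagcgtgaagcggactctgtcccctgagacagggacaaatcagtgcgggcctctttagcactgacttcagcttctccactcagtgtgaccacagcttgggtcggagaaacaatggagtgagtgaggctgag
Hilpda: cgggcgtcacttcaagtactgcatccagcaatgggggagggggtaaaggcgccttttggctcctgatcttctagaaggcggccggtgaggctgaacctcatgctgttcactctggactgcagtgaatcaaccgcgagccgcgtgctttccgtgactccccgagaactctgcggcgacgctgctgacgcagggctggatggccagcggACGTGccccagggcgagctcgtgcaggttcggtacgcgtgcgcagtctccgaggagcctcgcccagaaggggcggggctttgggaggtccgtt

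Over all 15 windows of the 10 genes, TTGCNNAA was in 2 windows, of Plin1 and Cidec, beside 10.8% of all 32851 RefSeq windows of this length. ACGTG was in 2 windows, of Hilpda and Plin2, beside 19.6%. A pair of AGGNCA half-sites with 1 base between them, the direct repeat bound by PPARG with RXR, was in 0 of 15 windows, beside 0.381%. TATAAA, the TATA box, and TCACNCCAC, a sterol response element, were also in 0, beside 13.6% and 1.24%. Of the searched patterns, TTGCNNAA was found for both Plin1 and Cidec, in Cidec in 1 of its 2 windows. Whether the pattern bears on either ratio was not tested.

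Of the droplet formation genes, Fitm2 passed the rule of size on few reads and Bscl2 did not pass it. Fitm2 encodes FIT2, an endoplasmic reticulum protein needed for droplets to bud. It had 20 counts (1.43 CPM, 0.872 to 2.205) with control siRNA and 42 counts (3.00 CPM, 2.16 to 4.05) with Pink1 siRNA. The ratio was 2.10 (counting interval 1.21 to 3.78), and the widened interval of 0.523 to 10.7 covered ratios on both sides of 1. Ratios as high or higher were found in 66 of the 583 genes in the lowest twentieth of level. There, 165 genes were as far from a log2 ratio of 0 in either direction. The gene was no longer past the rule with 5 counts added before the log or with total counts less the ribosomal RNA row as the scale. It overlaps the noncoding gene 2310001K24Rik over 85 bases on the opposite strand, which had 7 and 13 counts, and the use of strand in counting is not stated.

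Bscl2 encodes seipin, which gathers triglyceride at the droplet's neck with the endoplasmic reticulum and whose loss in people causes lipodystrophy. It had 82 counts (5.85 CPM, 4.66 to 7.27) and 116 counts (8.28 CPM, 6.84 to 9.93), a ratio of 1.41 (counting interval 1.06 to 1.90, widened 0.659 to 3.13). Both formation genes were higher with Pink1 siRNA in these libraries. In the twentieth of Bscl2, 108 of the 583 genes had a log2 ratio as high or higher, and 201 were as far from 0 in either direction. Bscl2 overlaps Gng3 on the opposite strand over 1780 bases, and Gng3 had 0 counts in both libraries. Fitm2 to Bscl2 tags stood at 0.244 and 0.362, with a ratio of these of 1.48 (conditional 95% interval 0.784 to 2.87), an interval that includes 1.

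The genes of the small lipase inhibitors were close to level. G0s2 and Hilpda each encode a short protein that binds and inhibits adipose triglyceride lipase, the product of Pnpla2, which makes the first cut in stored triglyceride. G0s2 had 216 counts (15.4 CPM, 13.4 to 17.6) with control siRNA and 198 counts (14.1 CPM, 12.2 to 16.2) with Pink1 siRNA, a ratio of 0.917 (counting interval 0.752 to 1.12). Hilpda had 536 counts (38.3 CPM, 35.1 to 41.6) and 557 counts (39.8 CPM, 36.5 to 43.2), a ratio of 1.04 (counting interval 0.921 to 1.17). The libraries overlap within counting error for both. With Pnpla2 at 2121 and 2388 counts, the inhibitors together stood at 0.355 and 0.316 tags per Pnpla2 tag. The ratio of these was 0.892 (conditional 95% interval 0.792 to 1.004).

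Hilpda is a target of hypoxia-inducible factors, and 12 further hypoxia targets, all measured, had a median log2 ratio of 0.03, with none past the rule of size. Those furthest from 1 were Adm (adrenomedullin), with a ratio of 1.75, Pfkfb3, a glycolytic regulator (0.613), Ankrd37 (1.38) and Ndrg1 (0.838). The widened interval left out 1 for Adm (1.20 to 2.58) and for none of the other 11, beside 4.1% of all measured genes. Hilpda, at 1.04, lay inside the range of this list.

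Aqp7, the channel through which fat cells release glycerol, had few reads. It had 37 counts (2.64 CPM, 1.86 to 3.64) and 26 counts (1.86 CPM, 1.21 to 2.72), a ratio of 0.703 (counting interval 0.409 to 1.19, widened 0.164 to 2.72). A difference of this size was not detectable at this depth. Of 7 other genes of glycerol handling, 4 were measured, with a median log2 ratio of -0.04. The glycerol kinase gene Gyk had a ratio of 0.976, Gpd1 0.974 and Gpd2 0.968, which are glycerol-phosphate dehydrogenases. Aqp11, a channel of internal membranes, went from 70 to 22 counts (widened interval 0.0735 to 1.03). Aqp11 was lower by the rule, as were 2.39% of all measured genes. The other glycerol channels Aqp3 (4 and 0 counts) and Aqp9 (1 and 0) had too few reads for a ratio.

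**Figure D4:**
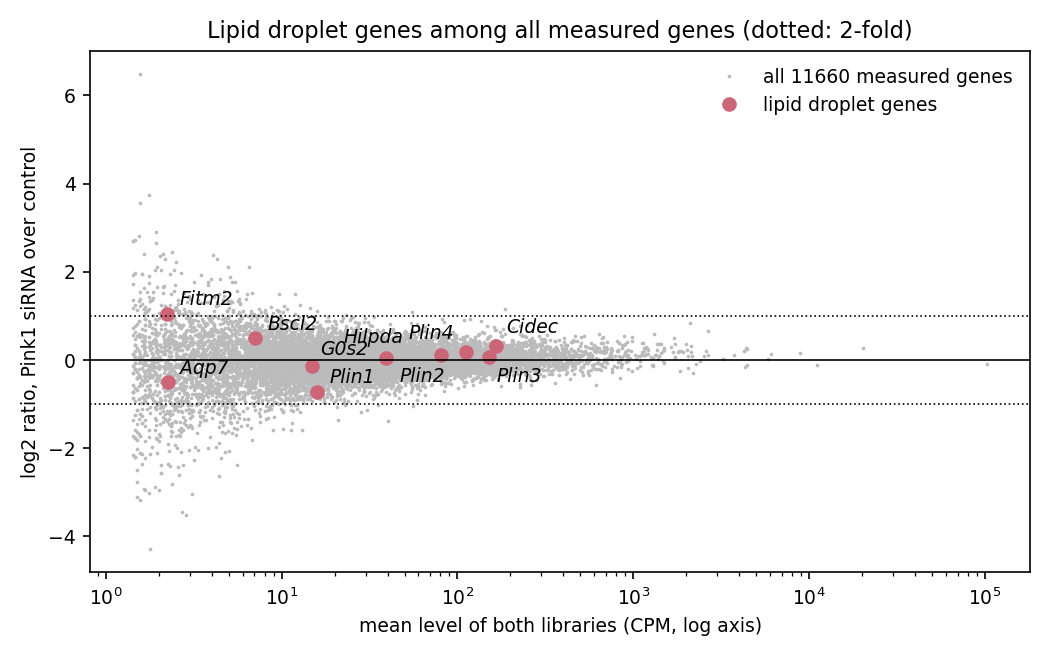
Log2 ratio, Pink1 siRNA over control siRNA, against the mean level of both libraries in CPM (log axis) for all 11660 measured genes (grey) and the 10 lipid droplet genes (red). Dotted lines mark 2-fold. The spread of all genes widens toward low levels, where Fitm2 and Aqp7 lie, and Plin1 at -0.72 is toward the lower edge for its level.

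The wider droplet machinery was mixed. Of 28 other genes of the droplet surface or its formation, 23 were measured, with a median log2 ratio of -0.04. By the rule of size 1 was higher, beside 1.63% of all measured genes, and 2 were lower, beside 2.39%. Mettl7b, a droplet-associated methyltransferase-like gene, was higher, with 14 and 37 counts (widened interval 0.541 to 19.8). Cideb, the CIDE gene known from liver, was lower with a ratio of 0.400 (widened 0.0904 to 1.40), as was Mospd2, which tethers the endoplasmic reticulum to droplets, from 166 and 82 counts (widened 0.226 to 1.02). Faf2, which recruits the segregase VCP to droplets, had 1467 and 1023 counts, a ratio of 0.697. Its widened interval of 0.508 to 0.953 was the only one of the 23 that left out 1, beside 4.1% of all measured genes. Fitm1, the muscle counterpart of Fitm2, had 0 counts in both libraries.

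Genes that fill and empty the droplet also lay around a ratio of 1. Of 13 lipolysis genes 10 were measured, with a median log2 ratio of -0.06 and none past the rule. The furthest were the monoacylglycerol lipase gene Abhd6 (ratio 0.576), Prkar2b (0.754) and Prkaca (0.804), which are subunits of protein kinase A, and Fabp4 (1.14), and all 4 widened intervals included 1. Of 16 triglyceride synthesis genes 12 were measured, with a median of -0.03 and none past the rule. Lpin1, a phosphatidate phosphatase gene, had 546 and 865 counts, a ratio of 1.58 (widened interval 1.11 to 2.29). Of the 12, the widened interval left out 1 for Lpin1 only, beside 4.1% of all measured genes. Agpat9, a glycerol-phosphate acyltransferase gene, had a ratio of 1.71, Acsl1 0.764 and Lpin2 0.833, with widened intervals that included 1.

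**Figure D5:**
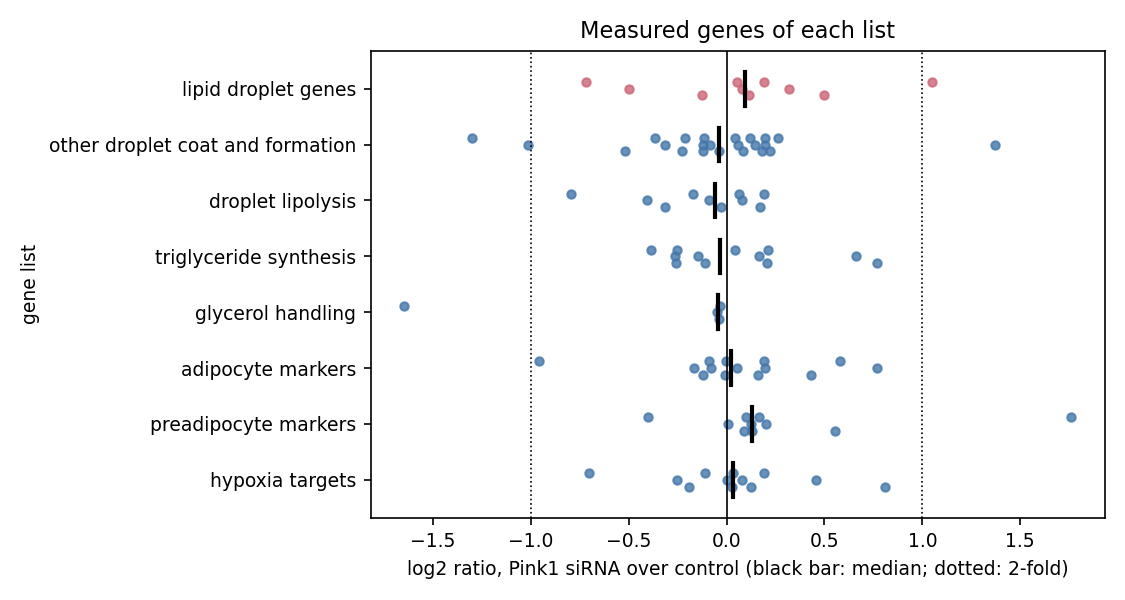
Log2 ratio, Pink1 siRNA over control siRNA, of each measured gene in 8 lists, with the median as a black bar and 2-fold as dotted lines. The medians lie between -0.06 and 0.13, and the 10 lipid droplet genes spread from -0.72 to 1.05.

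Fat cell identity was read from 16 adipocyte markers. Of these 14 were measured, with a median log2 ratio of 0.02 and none past the rule of size, and the leptin gene Lep had 0 counts in both libraries. Adipoq, adiponectin, was at 309.6 and 307.6 CPM, Lpl, lipoprotein lipase, at 817 and 815 CPM, and Pparg, the master regulator of fat cells, at 54.2 and 56.2 CPM. The markers furthest from 1 were Slc2a4 (ratio 0.510), Tusc5 (1.71), Retn (1.49) and Cd36 (1.35). The summed level of the list was 2789 CPM with control siRNA and 2953 CPM with Pink1 siRNA. Most of this difference lay in Fabp4, at 1047 and 1196 CPM. Of the 14 measured markers, 7 had a ratio above 1 and 7 below. Per Adipoq tag, Plin1 stood at 0.0634 and 0.0388, a ratio of 0.611 (conditional 95% interval 0.499 to 0.747), and Cidec at 0.478 and 0.600 (1.26, 1.17 to 1.35). Adipoq itself had a ratio of 0.994, so the Plin1 difference relative to Adipoq had to be about as large as over the whole library. In bulk cultures, fewer fat cells and less RNA per fat cell cannot be told apart.

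Preadipocyte transcripts were abundant in both libraries. Of 12 preadipocyte or fibroblast markers 10 were measured, with a median log2 ratio of 0.13. Of the 10, 9 had a ratio above 1, beside 51.1% of all measured genes, a share not matched for level. Dlk1, Pdgfra, Col1a1, Col3a1 and Gsn were in the highest twentieth of level, where the log2 ratio had quartiles of -0.08 and 0.21. Of the 583 genes there, 286 had a log2 ratio as high as that of Gsn or higher. The widened interval lay above 1 for 4 of the 10 markers, beside 2.09% of all measured genes. Its lower ends were near 1, at 1.01 for Col1a1 and Pi16, 1.02 for Dlk1 and 1.05 for Thy1. Total-count scaling moved the median log2 ratio of all measured genes by -0.04. On the log2 scale, the lower ends of Col1a1, Pi16 and Dlk1 lay closer to 1 than this shift, and that of Thy1 did not. The 4 intervals were not recomputed with other scalings. The summed level of the list was 19386 CPM with control siRNA and 21599 CPM with Pink1 siRNA, and Dlk1 alone was at 8326 and 9329 CPM. Pi16 was higher by the rule, with 20 and 69 counts, beside 1.63% of all measured genes. Thy1 had a ratio of 1.47, Col1a1 1.15 and the proliferation gene Mki67 0.758. These values stand beside the Plin1 ratio, and their part in it was not tested. Of 6 macrophage markers, Adgre1 and Itgam had 0 counts in both libraries and Ptprc had 5 and 0. Cd68 (20 and 23 counts) and Cd14 (223 and 179) were measured, and the list summed to 19.5 and 15.2 CPM. Of 5 endothelial markers 0 were measured, Cdh5, Kdr and Tek had 0 counts, and the list summed to 13 and 7 counts.

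The genes lie on 7 chromosomes, and their positions and ends bear on how their tags were counted (RefSeq, GRCm38.p6, which is the assembly behind mm10). Plin4 (chromosome 17, 56100587 to 56109948) and Plin3 (56278962 to 56290511) are 169013 bases apart on the minus strand, and Plin5 lies 1648 bases from Plin4. Plin4 overlaps Hdgfl2, listed as Hdgfrp2, on the opposite strand over 19 bases. That gene had 2012 and 2404 counts, a ratio of 1.19. Whether tags of the pair were mixed was not tested. Plin1 (chromosome 7, 79721164 to 79732904) overlaps no other RefSeq gene. It has 6 coding transcripts with complete 3′ ends in GENCODE M21, and these stop at 5 positions spread over 8765 bases. The tables sum all ends of a gene, so a difference in the use of ends could not be seen. Cidec (chromosome 6, 113424634 to 113435760) has 3 such ends over 923 bases, and it overlaps the noncoding gene Gm52871 over 1256 bases. Of the others, Fitm2 (chromosome 2, 163468703 to 163472629), G0s2 (chromosome 1, 193272160 to 193273188), Aqp7 (chromosome 4, 41033074 to 41048237), Plin2, Plin3 and Plin4 have 1 end each. Bscl2 (chromosome 19, 8837467 to 8848683) has 3 ends within 17 bases, and Hilpda (chromosome 6, 29272488 to 29275449) has 2 ends 260 bases apart. Plin2 (chromosome 4, 86626910 to 86670217) overlaps the pseudogene Gm12551 over 5312 bases on the same strand, and the placing of reads that fit both is not stated.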

How the data were processed

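RNA from 2 cultures, 1 library each, was read as 3′ tags (QuantSeq kit, per the labels' protocols). Per the submitters' processing notes, the tools were Bowtie2, bedtools and bcl2fastq 2.20.0.422, with the mm10 build. Annotation and use of strand are not given in the sources used here. Each library was deposited as raw counts of reads for 23282 rows of gene symbols. No molecular identifiers are named, so intervals cover counting error only.

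Counts were scaled by TMM effective library sizes (edgeR 4.0.16, R 4.3.3). The log2 ratio adds 0.5 to scaled counts, and printed ratios add nothing. Intervals are exact conditional binomial (SciPy 1.17.1). The widened interval divides both counts of a gene by the mean excess of the squared difference over its binomial variance in its twentieth of mean level (5.66 to 32.5 for the 10 genes). Real differences between the cultures are part of this excess. The calculations were tested on simulated counts with counting error only, which lack the excess seen here. How often the widened interval covers a true ratio was not tested. No test between groups could be run with 1 library per group. The genes, lists, rules and alternatives were chosen with earlier results of these data known. Named genes were the 10 genes, the targeted gene, 5 anchors (Adipoq, Fabp4, Lpl, Pparg and Dlk1) and from each list up to 4 measured genes by size of log2 ratio. The tags compared within a library, the search of promoter patterns and the genes at or near 0 were chosen after values were seen. Alternatives were total-count (with and without the ribosomal RNA row Rn45s), DESeq2 1.42.0 and upper-quartile scaling, centring on the adipocyte markers, 5 counts added, other filters (none and 200), a fold of 1.5, no interval and the widened interval.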

Additional observations from a re-analysis of the deposited data

How the results depend on the processing

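The median log2 ratio of the measured droplet genes stayed above 0 in all 8 alternatives that change it or the filter, between 0.04 and 0.10. It covers 7 genes with a summed count of at least 200 and 10 otherwise. A change of scaling shifts all genes by nearly the same amount, and removing the filter changes none of the 10, so these settings could move the median little. Each gene kept the sign of its log2 ratio under every scaling, except Hilpda, which went from 0.06 to -0.0021 with total counts less the ribosomal RNA row. The call of 1 higher gene (Fitm2) rested on the settings. It was 0 with total counts less the ribosomal RNA row, 0 with 5 counts added before the log, 0 with the widened interval, and 0 with a summed count of at least 200, which leaves out Fitm2, Aqp7 and Bscl2. The count of lower genes was 0 in the main setting and 1 (Plin1) with a fold of 1.5, beside 6.64% of all measured genes. The log2 ratio of Plin1 ranged from -0.78 to -0.70 and that of Cidec from 0.26 to 0.32. Perilipin shares were equal with Plin5 included, which could not change them because Plin5 had 0 counts in both libraries. Over all genes, a summed count of 200 left 26 higher and 40 lower in place of 190 and 279, and no filter gave 597 and 853. No paired analysis was possible because each group has 1 library. Depth limits Fitm2 and Aqp7 most, with 62 and 63 counts in all.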
